A study of Mus musculus with 6 samples.

Results

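The genes described here are 10 markers of intestinal stem cells and feedback genes of Wnt signalling at the base of the crypt: Lgr5, Ascl2, Olfm4, Smoc2, Axin2, Sox9, Rnf43, Znrf3, Prom1 and Ephb2. They were taken by gene symbol from the platform annotation. Of the 10, 7 had a probe set, 1 each, among 19505 genes with a symbol. No probe set was paired with the symbols Olfm4, Rnf43 or Ephb2, and these 3 genes were not analysed here.

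The 6 single-colour arrays held RNA labelled as colon crypt RNA of C57BL/6J mice. MBELN are exosome-like nanoparticles from the bark of mulberry, an edible plant. Mice of the MBELN group received it by oral gavage every day for 7 days, in 100 µl per dose, and gave 3 arrays. The other 3 arrays came from control mice, titled PBS, and the labels give no genetic alteration, age or sex for either group. The labels do not say whether each array is a separate mouse. The p-values therefore rest on the spread among 3 samples per group, part of which may be technical. The arrays within each group also differed in tissue profile, as given below. Each SD, SE, interval and p-value of the groups of 3 therefore mixes unlike samples and is not the spread among replicates of 1 kind of sample.

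Intestinal crypts renew their epithelium from stem cells at the crypt base, which depend on Wnt ligands from neighbouring cells. Wnt binding to Frizzled and Lrp receptors stabilises beta-catenin, which acts with TCF/LEF factors on target genes. R-spondins, bound by Lgr receptors, raise this signal by clearing the ubiquitin ligases Rnf43 and Znrf3, which otherwise remove Frizzled receptors from the surface. Axin2, Rnf43, Znrf3 and Lgr5 are themselves Wnt targets, so their transcripts are commonly read as a measure of Wnt activity. Several of these genes are also used outside the gut, for example Sox9 in astrocytes of the brain.

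Values are read as log2, and a probe set's value is compared between arrays, not with that of another gene. Olfactory and vomeronasal receptors, mostly silent outside the nose, gave a dim level per array (the 95th percentile of their probe sets), between 3.99 and 4.44. Transcripts of tissues other than colon crypt epithelium were high in all 6 arrays. A list of 15 gut epithelial genes had medians of 4.46, 3.35 and 4.89 in MBELN 1, 2 and 3, against 16.88, 15.83 and 17.45 in PBS 1, 2 and 3, and 8, 2 and 9 of these genes lay above the dim level in the MBELN arrays, against 15, 14 and 15 in the PBS arrays. The median of 15 heart muscle genes was 18.63 in MBELN 1 and 18.92 in MBELN 3, and 3.74 to 4.0 in the other 4 arrays. That of 12 neuronal genes was 15.54 in MBELN 2 and 3.55 to 4.14 elsewhere. Paneth cell genes of the small intestine had medians of 19.45 and 19.76 in PBS 1 and PBS 3 and 3.44 in PBS 2, where 8 colon epithelial genes had a median of 11.36, against 3.08 and 2.73 in PBS 1 and PBS 3. Smooth muscle genes had medians of 16.41, 18.09 and 16.35 in PBS 1, 2 and 3. The median of 14 small intestinal enterocyte genes was 8.56, 3.50 and 7.93 in MBELN 1, 2 and 3. In PBS 1, 2 and 3 it was 17.12, 6.32 and 17.40. In this list MBELN 1 and MBELN 3 thus lay above PBS 2, with 12 and 13 genes above the dim level, against 10. Every MBELN value below comes from an array in which the list of 15 gut epithelial genes was low, and treatment and tissue profile cannot be told apart. All lists were chosen with earlier results of these arrays known.

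**Figure D1:**
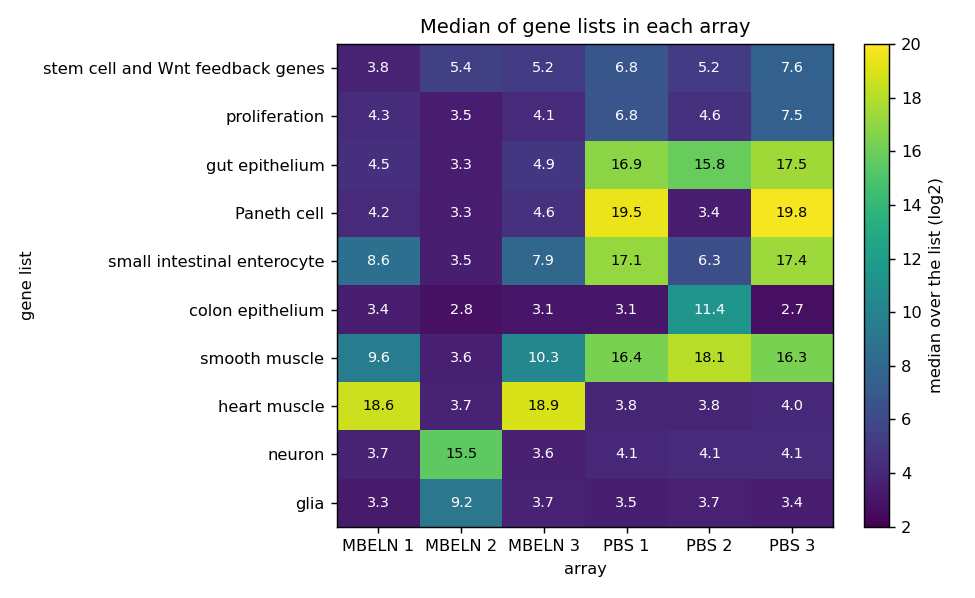
Median log2 value of each gene list (rows) in each array (columns), with the number printed in each cell and the colour scale at the right. Gut epithelial genes are high in the 3 PBS arrays, heart muscle genes in MBELN 1 and MBELN 3, and neuronal genes in MBELN 2, while the 7 stem cell and Wnt feedback genes have their 2 highest medians in PBS 3 and PBS 1.

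By the labels, the comparison of MBELN with PBS asked which crypt transcripts differ after the treatment, but tissue profile differed between the groups as well. Prom1 was far lower in the arrays labelled MBELN, and no other measured stem cell or Wnt feedback gene passed the threshold. With limma and Benjamini-Hochberg adjustment over 22206 probe sets, 1 of the 7 genes fell at an adjusted p of 0.05. Of all probe sets, 5.18% passed this threshold, with 3.76% lower and 1.42% higher in MBELN, and 17.8% had an unadjusted p under 0.05, again against 1 of the 7 genes. 5 of the 7 differences were negative, and their median was -1.13, against 0.09 over all probe sets. Lgr5 and Axin2 were high in PBS 1 and PBS 3 and low in PBS 2 and in the MBELN arrays, so their groups overlapped. Smoc2 was highest in MBELN 1 and MBELN 3, and Znrf3 in MBELN 2. In bulk samples such as these, fewer cells of a type, less RNA per cell and an unlike tissue in the sample cannot be told apart.

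**Figure D2:**
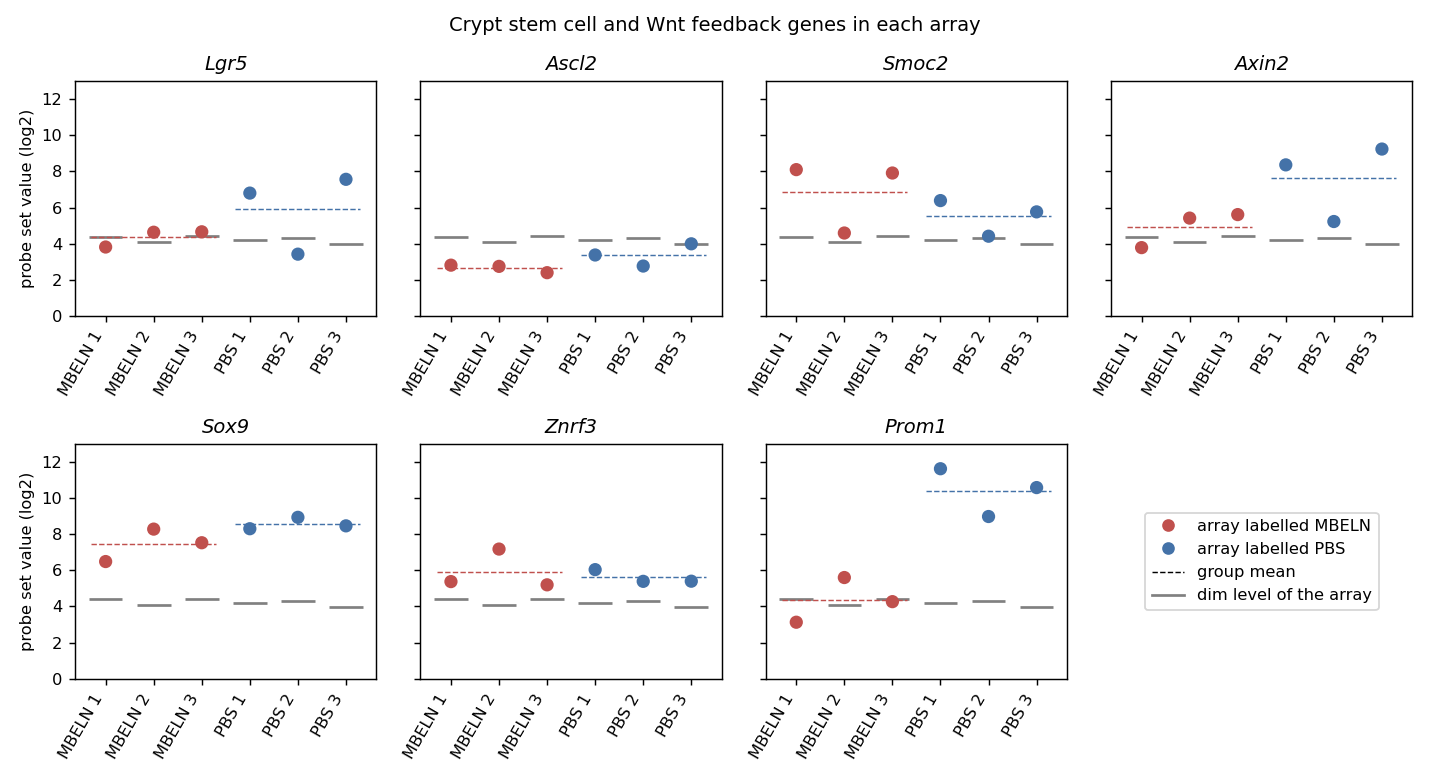
Log2 value of each of the 7 measured genes in the 6 arrays (points), with group means (dashed lines) and the dim level of each array (grey bars). Prom1 lies between 3.13 and 5.60 in the MBELN arrays and between 8.97 and 11.62 in the PBS arrays, whereas Lgr5 and Axin2 split the PBS arrays.

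Lgr5 encodes the R-spondin receptor that marks the cycling stem cells of the crypt base. It read 3.82, 4.64 and 4.66 in MBELN 1, 2 and 3, against 6.80, 3.42 and 7.56 in PBS 1, 2 and 3. PBS 1 and PBS 3 were high, and PBS 2 was the lowest of the 6 arrays and below its dim level, as was MBELN 1, so the groups overlapped. The means were 4.37 ± 0.48 in MBELN and 5.93 ± 2.20 in PBS (SD, n = 3 each), a difference of -1.56 with a 95% interval from -4.34 to 1.22 (limma, adjusted p = 0.543). Within PBS, PBS 2 lay 3.76 below the mean of PBS 1 and PBS 3, a gap larger than that between the group means. PBS 2 was the array with colon epithelial transcripts, and PBS 1 and PBS 3 were those with Paneth cell transcripts. Without PBS 2, and so against the Paneth-marked PBS 1 and PBS 3 alone, the difference was -2.81 and passed the threshold (limma, adjusted p = 0.0368). Without PBS 3 it was -0.74 (adjusted p = 0.836). Between MBELN 1 and MBELN 3 and the lone PBS 2, the arrays with the higher level of hybridisation control probe sets, it was 0.82, and between MBELN 2 alone and PBS 1 and PBS 3 it was -2.55. With 1 array on one side, these are values without a replicate check, here and for the other genes, and no p is given for them.

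Ascl2 encodes a transcription factor that maintains the Lgr5 stem cell state. It read 2.81, 2.75 and 2.40 in MBELN 1, 2 and 3, against 3.38, 2.77 and 4.0 in PBS 1, 2 and 3. All values but that of PBS 3, which lay at 4.0 just above a dim level of 3.99, were below the dim level, so no fold is given. The order still put PBS 3 and PBS 1 highest, as for Lgr5. The difference was -0.73 with a 95% interval from -1.70 to 0.25 (limma, adjusted p = 0.420).

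Smoc2 encodes a secreted calcium-binding matrix protein that is part of the Lgr5 stem cell signature and is also made by mesenchymal cells. It read 8.10, 4.59 and 7.91 in MBELN 1, 2 and 3, against 6.39, 4.42 and 5.76 in PBS 1, 2 and 3. MBELN 1 and MBELN 3, the arrays with heart muscle transcripts, were the 2 highest, and MBELN 2 and PBS 2 lay near the dim level. Smoc2 averaged 6.87 ± 1.97 in MBELN and 5.52 ± 1.0 in PBS (SD, n = 3 each), a difference of 1.35 with a 95% interval from -1.39 to 4.08 (limma, adjusted p = 0.589). Without MBELN 2 it was 2.48 (adjusted p = 0.0495). It was 3.59 between MBELN 1 and MBELN 3 and the lone PBS 2 and turned to -1.48 between MBELN 2 alone and PBS 1 and PBS 3. The median of 8 fibroblast genes moved beside it, at 9.79, 4.24 and 10.74 in MBELN 1, 2 and 3, but it was 10.49 in PBS 2, the array where Smoc2 was lowest, against 6.94 and 6.77 in PBS 1 and PBS 3. The part of heart and fibroblast transcripts in the Smoc2 values was not tested.

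Axin2 encodes a scaffold of the beta-catenin destruction complex and is a widely used readout of Wnt activity, since the pathway induces this inhibitor of its own. It read 3.78, 5.42 and 5.61 in MBELN 1, 2 and 3, against 8.36, 5.23 and 9.24 in PBS 1, 2 and 3. PBS 1 and PBS 3 stood well above the other 4 arrays, and PBS 2 lay between MBELN 1 and MBELN 2, so the groups overlapped. The means were 4.94 ± 1.0 in MBELN and 7.61 ± 2.11 in PBS (SD, n = 3 each). The difference was -2.67 with a 95% interval from -5.55 to 0.20 and did not pass the threshold (limma, adjusted p = 0.311). It was -3.86 without PBS 2, the array with colon epithelial transcripts (limma, adjusted p = 0.0511). With any other array left out it lay between -1.86 and -3.01. Between MBELN 1 and MBELN 3 and the lone PBS 2 it was -0.53, and between MBELN 2 alone and PBS 1 and PBS 3 it was -3.38. Over the 6 arrays Axin2 varied with Lgr5 (Pearson's r = 0.954), a description only, since the arrays fall into clusters that share a tissue profile. In PBS 1, 2 and 3, 14 proliferation genes had medians of 6.76, 4.55 and 7.55, in the same order as Axin2 and Lgr5. These genes include Mki67, a nuclear protein of cycling cells. In MBELN 1, 2 and 3 their medians were 4.25, 3.46 and 4.13.

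The start of Axin2 is shown because the gene is the textbook example of Wnt feedback. The windows from RefSeq (GRCm38.p6) run from 250 bases before to 50 after an annotated start. Capitals mark matches on either strand to the core of the TCF/LEF motif, CTTTGA, or to the GC box, GGGCGG. The Axin2 window (chr11:108920099-108920398, + strand) was 70.0% G and C, against a median of 52.7% over 32851 windows. It held 2 GC boxes and no CTTTGA. The arrays did not measure binding at these windows.
Axin2: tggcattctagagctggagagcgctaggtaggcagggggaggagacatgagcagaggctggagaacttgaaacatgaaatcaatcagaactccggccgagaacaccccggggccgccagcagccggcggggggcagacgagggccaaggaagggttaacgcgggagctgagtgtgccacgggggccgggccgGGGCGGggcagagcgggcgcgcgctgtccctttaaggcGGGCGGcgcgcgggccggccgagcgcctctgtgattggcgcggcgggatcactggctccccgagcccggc

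Sox9 encodes a transcription factor of crypt base progenitors and Paneth cells, and of astrocytes in the brain. It read 6.48, 8.28 and 7.52 in MBELN 1, 2 and 3, against 8.30, 8.93 and 8.46 in PBS 1, 2 and 3. The groups did not overlap, but MBELN 2, the array with neuronal and glial transcripts, at 8.28 came close to PBS 1 at 8.30. Sox9 was above the dim level in all 6 arrays and was the measured gene that peaked in PBS 2. The means were 7.43 ± 0.90 in MBELN and 8.56 ± 0.33 in PBS (SD, n = 3 each), a difference of -1.13 with a 95% interval from -2.43 to 0.16 (limma, adjusted p = 0.337). It was -1.93 between MBELN 1 and MBELN 3 and the lone PBS 2, and -0.10 between MBELN 2 alone and PBS 1 and PBS 3. The median of 9 glial genes was 9.17 in MBELN 2 and 3.31 to 3.73 in the other 5 arrays. The part of glial transcripts in the Sox9 value of MBELN 2 was not tested.

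Znrf3 encodes a membrane ubiquitin ligase that removes Frizzled receptors and so damps Wnt signalling. It read 5.37, 7.17 and 5.19 in MBELN 1, 2 and 3, against 6.04, 5.39 and 5.40 in PBS 1, 2 and 3. MBELN 2 stood above the other 5 arrays, which spanned 5.19 to 6.04, and all 6 values were above the dim level. The means were 5.91 ± 1.09 in MBELN and 5.61 ± 0.37 in PBS (SD, n = 3 each), a difference of 0.31 with a 95% interval from -1.20 to 1.82 (limma, adjusted p = 0.831). Without MBELN 2 the difference was -0.32 (adjusted p = 0.605). It was -0.10 between MBELN 1 and MBELN 3 and the lone PBS 2, and 1.46 between MBELN 2 alone and PBS 1 and PBS 3. Znrf3 did not separate PBS 1 and PBS 3 from PBS 2 in the way of Axin2 and Lgr5, and its r with Axin2 over the 6 arrays was 0.001.

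Prom1 encodes prominin 1, also known as CD133, a membrane glycoprotein of cell protrusions that marks crypt base cells in the mouse small intestine and is also present in other epithelia. It read 3.13, 5.60 and 4.26 in MBELN 1, 2 and 3, against 11.62, 8.97 and 10.57 in PBS 1, 2 and 3. Each PBS value lay above each MBELN value, and MBELN 1 and MBELN 3 were below their dim levels. Groups apart in this direction, as for Prom1 and Sox9, were found in 2 of the 7 genes and in 13.4% of all probe sets (25.3% in either direction). The means were 4.33 ± 1.24 in MBELN and 10.39 ± 1.33 in PBS (SD, n = 3 each). Prom1 fell by 6.06 ± 0.91 on the log2 scale (SE, n = 3 each), with a 95% interval from -8.33 to -3.79 (limma, adjusted p = 0.0227). The difference stayed between -5.28 and -7.40 in every alternative, but it did not pass the threshold when PBS 1 (adjusted p = 0.0949), PBS 3 (0.114), MBELN 1 (0.0821) or MBELN 3 (0.0978) was left out. It was -5.28 between MBELN 1 and MBELN 3 and the lone PBS 2, and -5.50 between MBELN 2 alone and PBS 1 and PBS 3. The gut epithelial median was lower by a wide margin in the same MBELN arrays, at 3.35 to 4.89 against 15.83 to 17.45 in the PBS arrays, and its part in the fall of Prom1 was not tested.

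**Figure D3:**
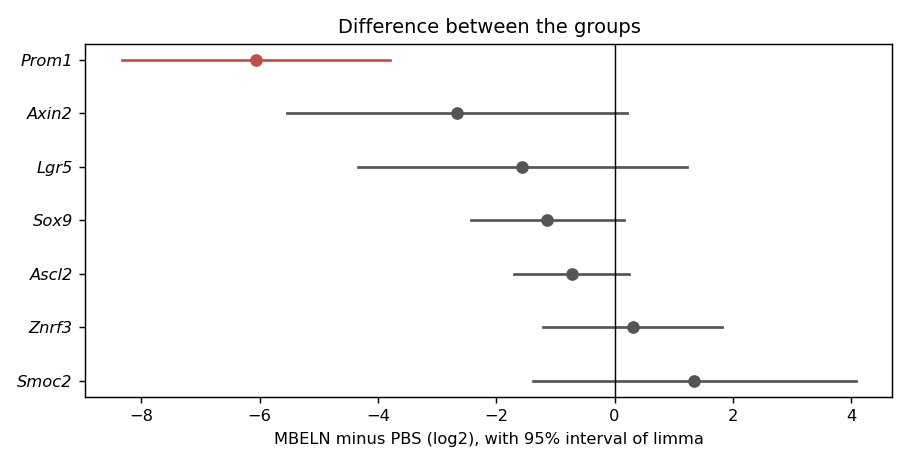
Difference between the MBELN and PBS means of each gene on the log2 scale (points) with its 95% interval from limma (lines). The interval of Prom1, in red, runs from -8.33 to -3.79, and those of the 6 other genes include 0.

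Prom1 is shown with both of its annotated start windows because it is the gene past the threshold. The window of the upstream start (chr5:44101687-44101986, - strand) was 57.0% G and C and held 1 GC box. The window of the downstream start (chr5:44094719-44095018, - strand) was 50.3% G and C and held 1 CTTTGA, which begins at base 9 of the transcribed part. CTTTGA was found in 16.0% of the 32851 windows and GGGCGG in 35.7%, so these matches are common. Of the 7 measured genes, 3 had a window in the RefSeq table, and that of Ascl2, 67.0% G and C, held 1 GC box and no CTTTGA.
Prom1 upstream start: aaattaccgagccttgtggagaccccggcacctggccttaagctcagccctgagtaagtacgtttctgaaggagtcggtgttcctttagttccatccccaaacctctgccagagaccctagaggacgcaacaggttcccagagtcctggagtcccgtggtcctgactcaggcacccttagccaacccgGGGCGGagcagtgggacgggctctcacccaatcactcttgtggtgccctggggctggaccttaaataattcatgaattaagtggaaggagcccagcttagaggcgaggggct
Prom1 downstream start: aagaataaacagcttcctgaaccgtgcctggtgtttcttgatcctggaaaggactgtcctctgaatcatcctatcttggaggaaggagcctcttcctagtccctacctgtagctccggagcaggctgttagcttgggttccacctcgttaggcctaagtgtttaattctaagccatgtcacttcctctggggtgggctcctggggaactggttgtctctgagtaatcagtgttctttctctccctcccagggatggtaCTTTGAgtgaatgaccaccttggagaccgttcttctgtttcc

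The 7 genes did not vary as 1 block over the arrays. Lgr5, Ascl2 and Axin2 shared their order at the top, PBS 3 above PBS 1, with r between 0.848 and 0.954 among them. Prom1, with PBS 1 highest, reached nearly the same r with Axin2 (0.845), and 0.764 with Sox9 and 0.687 with Lgr5. All Ascl2 values but that of PBS 3 were below the dim level. Its order and its r of 0.86 with Lgr5 and 0.848 with Axin2 therefore rest on dim values. Smoc2 ran against Sox9 (r = -0.865) and was nearly unrelated to Lgr5 (r = -0.016). Ranges over the 6 arrays were 8.49 for Prom1, 5.45 for Axin2, 4.14 for Lgr5, 3.68 for Smoc2, 2.45 for Sox9, 1.98 for Znrf3 and 1.60 for Ascl2, against a median of 1.95 over all probe sets.

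With both PBS 2 and MBELN 2 left out, 5 of the 7 genes passed the threshold, against 30.5% of all probe sets in that setting. Lgr5 fell by 2.94, Axin2 by 4.10, Sox9 by 1.38 and Prom1 by 7.40, and Smoc2 rose by 1.93 (limma, adjusted p between 6.8e-05 and 0.0486). That setting compares heart-marked MBELN 1 and MBELN 3 with PBS 1 and PBS 3, the arrays with Paneth cell genes. The count of genes past the threshold was 0 without PBS 1, PBS 3, MBELN 1 or MBELN 3. In these settings only 377, 379, 501 and 447 of the 22206 probe sets passed, so a count of 0 among 7 genes is close to that background. In other settings, 2 of the 7 genes passed without PBS 2 (7.21% of all probe sets), 2 without MBELN 2 (16.8%) and 3 with array weights (25.9%). Between MBELN 1 and MBELN 3 and the lone PBS 2, 2 passed (18.8% of all probe sets), and between MBELN 2 alone and PBS 1 and PBS 3, 3 passed (32.6%). The spread behind both counts comes from 1 pair of like arrays, so they say nothing about how the lone array's kind of sample varies.

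**Figure D4:**
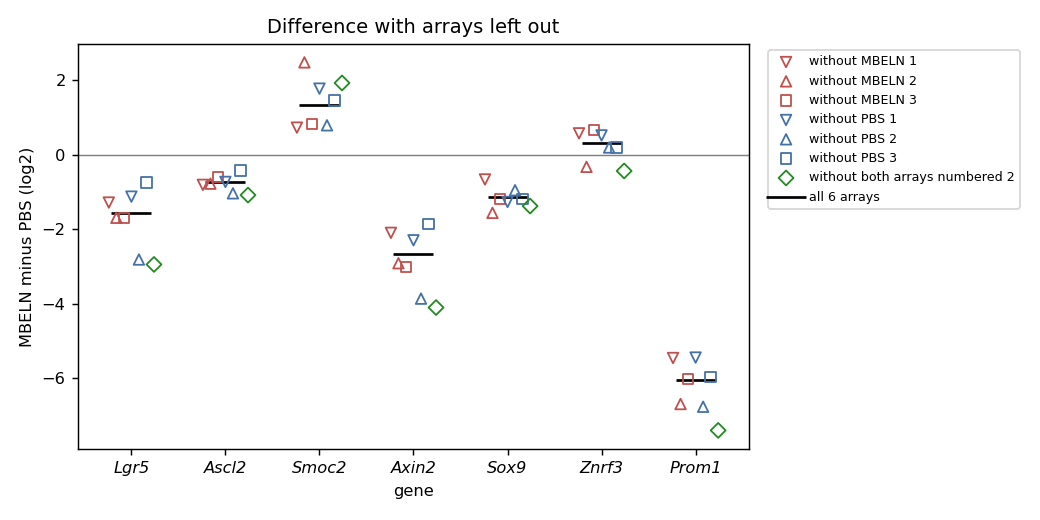
Difference between MBELN and PBS (log2) of each gene with all 6 arrays (black bars) and with the named arrays left out (symbols). Lgr5 and Axin2 lie lowest without PBS 2 or without both arrays numbered 2, Znrf3 lies on both sides of 0, and Prom1 stays between -5.45 and -7.40.

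Among the other genes of the pathway, Wnt ligands and their secretion factors gave no call, and the receptors gave 2. Of all probe sets, 3.76% were called lower and 1.42% higher with limma, and 17.8% had an unadjusted p under 0.05. The count of each list from here on is to be read beside these shares, and a single call in a short list is close to them. Of 21 ligands and secretion factors, 0 passed the threshold in limma's test, 1 was under an unadjusted p of 0.05, and 13 lay below the dim level in all 6 arrays. The gene with the smallest p was Wnt2b, a ligand, at 3.42 ± 0.65 in MBELN and 4.53 ± 0.03 in PBS (SD, n = 3 each; limma, adjusted p = 0.221), and all 3 of its MBELN values were dim. Wls, which carries Wnt proteins to the surface, read 7.87 ± 1.05 in MBELN and 9.24 ± 0.59 in PBS (limma, adjusted p = 0.339).

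Of 20 receptors and R-spondins, 2 fell, 0 rose and 18 did not pass. In limma's test, 7 of the 20 had an unadjusted p under 0.05, with differences in both directions. Fzd5, a Frizzled receptor of the gut epithelium, read 4.68, 5.04 and 5.03 in MBELN 1, 2 and 3, against 10.92, 10.85 and 11.28 in PBS 1, 2 and 3. The 3 PBS arrays were alike here, unlike for Lgr5. Fzd5 fell by 6.10 ± 0.28 (log2, SE, n = 3 each, limma, adjusted p = 0.00080) and kept its call in every alternative. Every alternative still set MBELN arrays low in gut epithelial genes against PBS arrays high in them. A kept call, here or for a gene below, therefore does not separate treatment from tissue. Lgr4, the R-spondin receptor that is broadly made in epithelia, read 8.09, 8.78 and 8.67 in MBELN 1, 2 and 3, against 13.39, 15.62 and 13.71 in PBS 1, 2 and 3. Lgr4 was thus highest in PBS 2, the PBS array in which Lgr5 was lowest. It fell by 5.73 ± 0.66 (limma, adjusted p = 0.00966), and leaving out MBELN 1 (adjusted p = 0.0527) or MBELN 3 (0.0548) ended this call. The list's median difference was -0.31, or -0.19 with dim genes at their bound.

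Of 13 secreted inhibitors, 1 rose, 0 fell and 12 did not pass. Frzb, a secreted Frizzled-like protein that binds Wnt ligands, read 7.26, 6.31 and 8.21 in MBELN 1, 2 and 3, against 3.64, 4.11 and 3.72 in PBS 1, 2 and 3, all 3 of which were dim, a rise of at least 8.53-fold (limma, adjusted p = 0.0242). Its call ended without PBS 1, PBS 3, MBELN 1 or MBELN 3 (limma, adjusted p between 0.0573 and 0.124). Of 15 measured destruction complex members and transducers, 1 rose, 0 fell and 14 did not pass. Csnk1e, a casein kinase 1 form that acts on Dishevelled, rose by 2.89 ± 0.52 (limma, adjusted p = 0.0399). Leaving out any array but MBELN 2 ended this call (limma, adjusted p between 0.0728 and 0.169), as did a trended variance (0.0801). Of 11 TCF/LEF factors and cofactors, 0 passed in limma's test and 2 were under an unadjusted p of 0.05. Tcf7l2, the main TCF factor of the gut epithelium, read 9.41, 7.20 and 8.59 in MBELN 1, 2 and 3, against 12.05, 15.97 and 12.41 in PBS 1, 2 and 3, and did not overlap between groups (limma, adjusted p = 0.0868, and 0.0464 with dim probe sets filtered out). Pygo1, a cofactor of beta-catenin, read 7.36 ± 0.92 in MBELN and 4.41 ± 0.85 in PBS (SD, n = 3 each; limma, adjusted p = 0.0717, and 0.0486 with the same filter).

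Of 14 other Wnt target genes measured, 1 fell, 0 rose and 13 did not pass, and 4 had an unadjusted p under 0.05 (limma). Cdx1, a homeobox factor of the intestinal epithelium, read 4.25, 3.85 and 4.59 in MBELN 1, 2 and 3, against 9.58, 8.78 and 9.84 in PBS 1, 2 and 3. Among the MBELN values only that of MBELN 3 was above its dim level, so the size of the fall rests partly on dim values. Cdx1 fell by 5.17 ± 0.40 (log2, SE, n = 3 each; limma, adjusted p = 0.00269) and kept its call in every alternative. The median difference of the list was -0.60, or -0.21 with dim genes at their bound. Of 17 other stem cell genes, 1 fell, 1 rose and 15 did not pass. Cd24a, a surface glycoprotein of crypt base cells, read 4.76, 3.44 and 5.67 in MBELN 1, 2 and 3, against 12.31, 11.64 and 12.91 in PBS 1, 2 and 3, with no overlap. The MBELN 2 value was below its dim level, so the size of the fall rests partly on a dim value. Cd24a fell by 7.66 ± 0.67 (limma, adjusted p = 0.00393) and kept its call in every alternative. As for Fzd5, the kept calls of Cdx1 and Cd24a do not separate treatment from tissue. Clu, which encodes clusterin and marks injury-induced stem cells in the mouse gut but is also abundant in brain and other tissues, read 17.92, 18.96 and 17.33 in MBELN 1, 2 and 3, against 12.82, 12.72 and 8.81 in PBS 1, 2 and 3. It rose by 6.62 ± 1.20 (limma, adjusted p = 0.0401). Leaving out any array but PBS 3 or MBELN 2 ended this call (limma, adjusted p between 0.0506 and 0.138), as did quantile normalization (0.0521) and a block for the hybridisation control level (0.0711). The median difference of this list was 0.28, and 0.00 with dim genes at their bound.

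**Figure D5:**
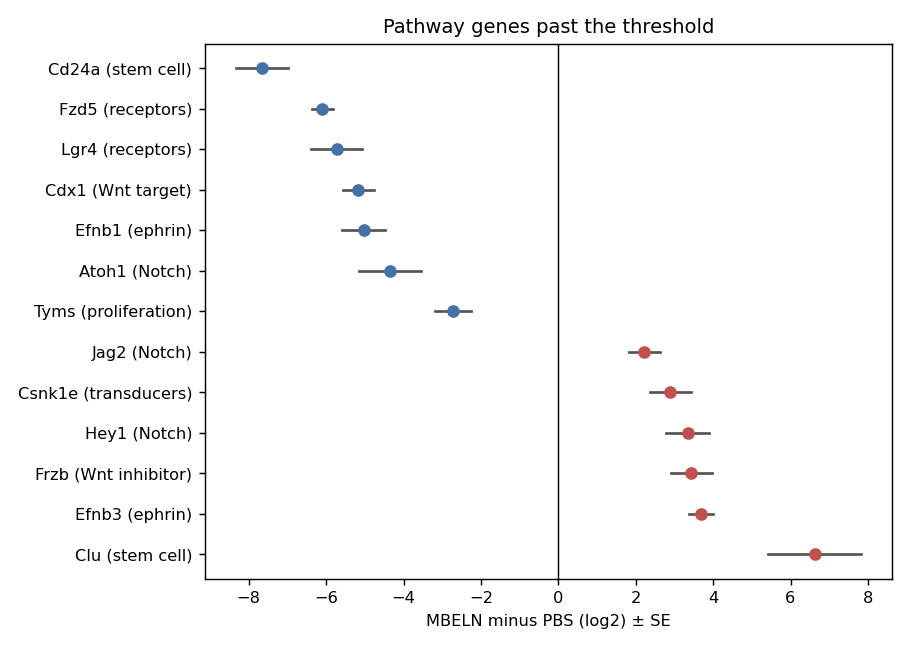
Difference between MBELN and PBS (log2, points) ± SE from limma for the genes of the 10 pathway lists that passed an adjusted p of 0.05, with the list in brackets. 7 genes lie below 0, from Cd24a at -7.66 to Tyms at -2.72, and 6 above, from Jag2 at 2.23 to Clu at 6.62.

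Eph receptors and ephrin-B ligands, which sort crypt cells by position, gave 1 rise and 1 fall among 11 genes. In limma's test, 4 of the 11 had an unadjusted p under 0.05. Efnb1, an ephrin of the villus and upper crypt, fell by 5.02 ± 0.56 (limma, adjusted p = 0.00864), and leaving out PBS 1 (0.0576) or PBS 3 (0.0573) ended this call. Efnb3, an ephrin best known from the nervous system, read 6.77, 6.14 and 6.91 in MBELN 1, 2 and 3, against 2.73, 3.03 and 3.01 in PBS 1, 2 and 3, all dim, a rise of at least 5.43-fold (limma, adjusted p = 0.00379) that kept its call in every alternative.

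Proliferation genes, 14 in number, gave 1 fall and 0 rises, and 8 of them had an unadjusted p under 0.05. Over all probe sets, 3.76% were called lower and 1.42% higher, and 17.8% had an unadjusted p under 0.05 with limma. Tyms, which makes thymidylate for DNA synthesis, read 4.65, 5.02 and 4.76 in MBELN 1, 2 and 3, against 7.73, 6.63 and 8.24 in PBS 1, 2 and 3, and fell by 2.72 ± 0.47 (limma, adjusted p = 0.0346). This call ended without PBS 1, PBS 3, MBELN 1 or MBELN 3 (limma, adjusted p between 0.119 and 0.162) and with a trended variance (0.0630). 14 of the 14 genes were above the dim level in PBS 1 and in PBS 3, 7 in PBS 2, and 6, 3 and 6 in MBELN 1, 2 and 3. The median difference was -2.30, or -1.72 with dim genes at their bound, and -1.13 for the 7 stem cell and Wnt feedback genes.

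The genes whose pattern over the 6 arrays was most like that of a member were named by Pearson's r among genes with at least 0.5 times its range. For Axin2 these were Kif20b (r = 0.995) and Cenpe (r = 0.988), both kinesins of mitosis, and Snrnp40 (r = 0.984), among 7618 genes. For Lgr5 they were U2af1, Nat8f5 and Cst6 (r between 0.992 and 0.996), and for Ascl2 Nat8, Sh2d6 and Nrm (0.988 to 0.990). Smoc2 was most like Nek9, Sdha and Acss1 (0.990 to 0.993), of which Sdha is a subunit of mitochondrial complex II. Sox9 was most like Ufsp2, Krtap10-4 and Usp4 (0.983 to 0.990). Znrf3 was most like N4bp1, Fam184b and Kcna3 (0.993 to 0.998), of which Kcna3 read 7.84 in MBELN 2 and 2.81 to 4.37 in the other arrays. Prom1 was most like Hook2, Cryl1 and Fbxo25 (0.994 to 0.996), among 4432 genes. With 6 arrays in few clusters, many genes reach such values.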

How the data were processed

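Each array gave 1 deposited log2 value per probe set, a scale inferred here from the authors' values, since medians were 4.38 to 4.55, the top value was 19.9 and 0 values were negative. Transcriptome Analysis Console 4.0 is named, per the submitters' processing notes. How the authors summarized, background-corrected and normalized the arrays, and on which genome build, is not given in the sources used here. Per the labels' protocols, biotinylated cRNA was made from 90 ng of total RNA, and the same label names a sequencing assay, which is unresolved.

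The table held 28846 probe sets, of which 6640 array controls stayed out of the tests. Of the other 22206, 19572 had 1 gene symbol and 2634 none. By Entrez identifier, all 19572 symbols equalled those of the RefSeq gene table of GRCm38.p6. Groups came from the sample titles. Limma 3.58.1 (lmFit, eBayes; R 4.3.3, statmod 1.5.0) compared MBELN with PBS, two-sided and with no covariate, and p-values were adjusted after Benjamini-Hochberg over all 22206 tests, with a threshold of 0.05. Differences are MBELN minus PBS. A gene with several probe sets is read from the set with the highest mean.

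The dim level came from 1414 receptor probe sets. A gene dim in all 3 arrays of 1 group has only a bound, from the mean of the other group to the mean of those levels, and counts as 0 in a bounded median where both groups are dim.

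Members and lists were chosen with earlier results of these data known. Named are all members, up to 4 genes with the smallest p past the threshold in each pathway list (otherwise up to 2), and for each member the 3 genes of highest r. Mki67 is named outside this rule, without values. The 4 hybridisation control probe sets averaged 9.79 to 10.09 in MBELN 1, MBELN 3 and PBS 2 and 8.43 to 8.98 in the other arrays, and this level served as a block and to split the arrays. The procedure was tested on simulated data, drawn independently for each array and so without the tissue clusters of these arrays. Of added log2 changes of 1, 2, 4 and 8, 0%, 2.8%, 54% and 82.8% passed the threshold. Of unchanged probe sets, 4.85% had an unadjusted p under 0.05 with limma. Nearly all changes of 1 or 2 were thus missed, and a gene that did not pass is not shown to be unchanged. Figures were drawn with matplotlib 3.10.9.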

Additional observations from a re-analysis of the deposited data

How the results depend on the processing

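The number of probe sets past the threshold was 1150 with all arrays. It was 5757 with array weights, 4174 within the arrays of higher and 7234 within those of lower hybridisation control level, 6769 without PBS 2 and MBELN 2, 407 at an adjusted p of 0.01, 1772 at 0.1, and 377 to 3738 when 1 array was left out. The number of measured members past it was 1. It was 3 with array weights (Axin2, Sox9 and Prom1), 5 without PBS 2 and MBELN 2, 0 at an adjusted p of 0.01, and 0 to 2 with 1 array left out. The arrays of higher hybridisation control level were MBELN 1, MBELN 3 and PBS 2, and those of lower level MBELN 2, PBS 1 and PBS 3. Either split leaves a lone array in 1 group and compares arrays of unlike tissue profile, so this section lists only differences for it. The members' median difference stayed negative, between -0.16 and -1.56. Znrf3 turned to -0.38 with array weights, -0.10 within the higher level and -0.43 without PBS 2 and MBELN 2, and lay between -0.32 (without MBELN 2) and 0.67 with 1 array left out. Lgr5 turned to 0.82 within the higher level and Smoc2 to -1.48 within the lower level. The cause of these changes was not tested.

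Quantile normalization, median centring, the filter on dim probe sets, the trended variance, the control level as a block, control probe sets and the mean of all probe sets kept the member count at 1. Ascl2 did not pass the filter. With the dim level at the 99th percentile, Lgr5 was above it in 2 arrays, Ascl2 in 0 and Smoc2 in 4. Same-numbered arrays did not deviate together (correlations of -0.03, -0.07 and -0.06), and no array correlated best with its own number. These are deviations from the mean of groups with unlike tissue profiles, so they cannot show whether the arrays were paired. With the replicate block, 456 probe sets and 0 members passed with limma, 1 member at an unadjusted p under 0.05. Of the genes called with all arrays, Prom1, Frzb, Csnk1e, Clu, Tyms, Hey1, Atoh1 and Jag2 did not pass with this block (limma, adjusted p between 0.0623 and 0.166), and Fzd5, Lgr4, Cdx1, Cd24a, Efnb1 and Efnb3 did.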

Other observations

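Notch signalling decides between absorptive and secretory fates above the crypt base. The 13 Notch pathway genes gave 2 rises and 1 fall, against 1.42% higher and 3.76% lower over all probe sets. Atoh1, the factor that directs cells to the secretory fate, read 2.62, 2.29 and 2.56 in MBELN 1, 2 and 3, all dim, against 8.03, 5.08 and 7.42 in PBS 1, 2 and 3, a fall of at least 5.79-fold (limma, adjusted p = 0.0407). Hey1, a Notch target best known from heart and vessels, read 7.92, 9.01 and 7.00 in MBELN 1, 2 and 3, against 4.8, 4.66 and 4.45 in PBS 1, 2 and 3, and rose by 3.34 ± 0.55 (log2, SE, n = 3 each; limma, adjusted p = 0.0294). Jag2, a Notch ligand, rose at least 1.97-fold from dim PBS values (limma, adjusted p = 0.0414). The calls of Atoh1 and Jag2 ended without PBS 1, PBS 3, MBELN 1 or MBELN 3, and that of Jag2 also without PBS 2, while that of Hey1 ended without PBS 1, PBS 2, PBS 3 or MBELN 1 (limma, adjusted p between 0.0631 and 0.173 over these). A block for the hybridisation control level also ended the call of Atoh1 (0.0519), and keeping control probe sets that of Jag2 (0.0516). The list's median difference was 0.30, or 0.04 with dim genes at their bound. Beside these genes, gut epithelial medians were 3.35 to 4.89 in the MBELN arrays and 15.83 to 17.45 in the PBS arrays, and endothelial medians were 12.42, 4.96 and 11.98 in MBELN 1, 2 and 3 and 4.72, 5.80 and 3.70 in PBS 1, 2 and 3. Their part in these changes was not tested.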
